A study of Arabidopsis thaliana with 4 samples.

Results

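The 4 loci described here lost most of their transcript in *stk* flowers and young siliques. They are *QQS* (AT3G30720), *MRD1* (AT1G53480), *HEI10* (AT1G53490) and AT1G71690. They were chosen by measured values of these same libraries, as the deepest falls of RPKM in *stk*, where RPKM is a read count scaled to exon length and library size, and the gene models of a locus were added together. They are 4 of 27206 loci in the files, and all 4 are among the 19044 loci that averaged 1 RPKM or more in these libraries. Because the difference between wild type and *stk* chose them, that difference is described here for each locus without a test.

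RNA was taken from inflorescences and from siliques up to 5 days after pollination of *Arabidopsis thaliana* plants of the ecotype Columbia, in 2 wild-type and 2 *stk* samples that the submitters describe as biological replicates. The *stk* plants carry the *stk-2* allele of *SEEDSTICK* (*STK*, AT4G09960), an insertion near a splice site of the gene. No other allele or treatment is stated for either group. STK is a MADS-domain transcription factor of ovules, seed coat and the seed stalk. The RNA is from whole organs of several ages, so fewer cells of a type and less RNA per cell cannot be told apart in any value given here.

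The 4 loci have unrelated products. *QQS* (*qua-quine starch*) is an orphan gene, a gene with no recognisable relative outside its own species, whose small protein binds the transcription factor subunit NF-YC4 and influences how much starch a leaf stores. It is also known for a promoter whose DNA methylation and expression vary between natural accessions. *MRD1* (*mto 1 responding down 1*) is named for its low transcript level in *mto1*, a mutant that over-accumulates methionine, and the role of its product is not known. *HEI10* encodes a RING-domain protein that marks the sites of class I crossovers in meiosis and is dosage sensitive for crossover number. AT1G71690 is annotated as a glucuronoxylan 4-O-methyltransferase-like protein of the DUF579 family. Characterised members of this family include proteins that methylate glucuronic acid side chains of xylan or take part in xylan synthesis in secondary walls. Another member, *AGM1*, is an arabinogalactan methyltransferase.

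Library depth, estimated from the spacing of the RPKM values, ran from 16965989 to 33673034 reads, with 1.69 times as many reads in the *stk* pair as in the wild-type pair. The file headers place *stk* replicate 1 on sequencing lane 7 and the other 3 libraries on lane 1, so lane was not balanced between the genotypes. Floral organ and ovule genes were present in every library, as the ovule gene *INO* with 8.24 and 5.86 RPKM in wild-type replicates against 8.05 and 7.22 RPKM in *stk* replicates shows. The 2-fold criteria used here were an unadjusted p of at most 0.05 from limma with a 2-fold change of the mean. Of the 9 floral organ and ovule loci listed as markers 0 met them, which is near the share of all loci, 0.326% as lower and 3.1% as higher. The largest difference was that of *SEP3*, with 139.7 and 125.6 RPKM in wild-type replicates against 274.0 and 192.9 RPKM in *stk* replicates (limma, unadjusted p = 0.00944, adjusted p = 0.493). The root hair gene *EXP7* was listed at 0 in all 4 libraries, and another, *COBL9*, had 3.51 and 2.12 RPKM in wild-type replicates against 2.15 and 1.45 RPKM in *stk* replicates. *STK* had 38.7 and 40.9 RPKM in wild-type replicates against 7.91 and 7.96 RPKM in *stk* replicates, a 5.01-fold lower mean. Each of the 4 chosen loci had a larger ratio than *STK* itself.

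**Figure D1:**
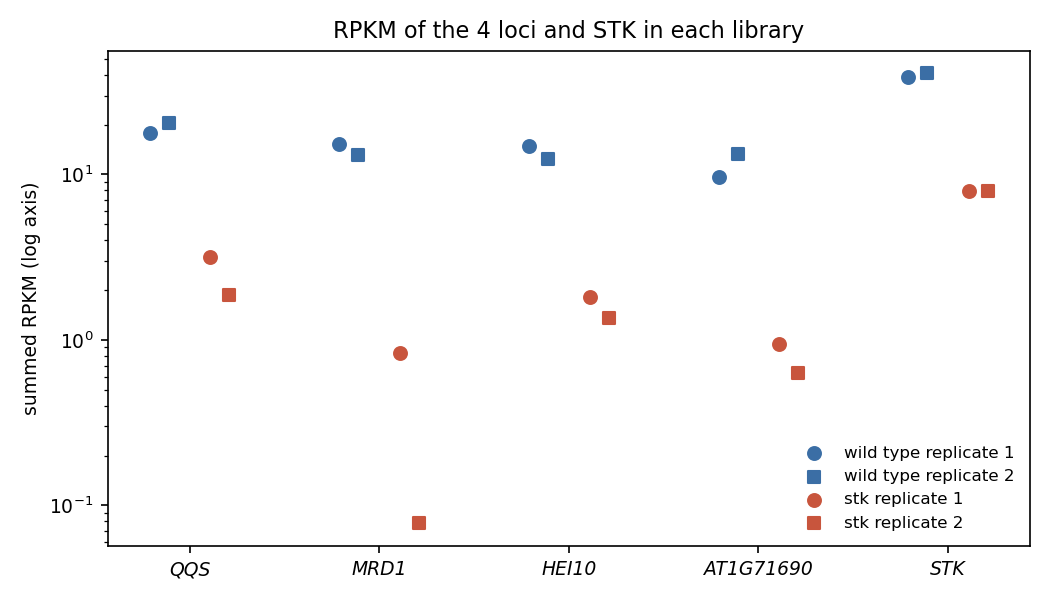
Summed RPKM (log axis) of *QQS*, *MRD1*, *HEI10*, AT1G71690 and *STK* in each library, with circles for replicate 1, squares for replicate 2, blue for wild type and red for *stk*. At every locus both *stk* libraries lie below both wild-type libraries, and *MRD1* in *stk* replicate 2, at 0.0780 RPKM, is the lowest point.

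*QQS* lies on the forward strand of chromosome 3, from 12349047 to 12349832 in the files (TAIR10). Its coding sequence in the RefSeq annotation of TAIR10.1 is split over chr3:12349461-12349478 and chr3:12349565-12349726 and holds 59 codons before the stop. It is shown whole because the smallness of this reading frame is the gene's defining feature, with the start and stop codons in capitals.

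QQS coding sequence: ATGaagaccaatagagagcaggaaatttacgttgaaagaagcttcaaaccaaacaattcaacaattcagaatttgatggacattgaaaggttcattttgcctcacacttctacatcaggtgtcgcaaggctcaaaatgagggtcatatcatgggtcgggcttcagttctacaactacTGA

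*QQS* had 17.7 and 20.3 RPKM in wild-type replicates 1 and 2, from an estimated 176 and 251 reads. It had 3.18 and 1.88 RPKM in *stk* replicates 1 and 2, from 57 and 37 reads. The groups did not overlap, and the lowest wild-type value was 5.56 times the highest *stk* value. The *stk* mean was 2.53 ± 0.924 RPKM against 19.0 ± 1.85 RPKM in wild type (SD, n = 2 each), a ratio of 7.52, which left 13.3% of the wild-type level. *QQS* kept the largest share of its transcript among the 4 loci. Counting error alone gives a 95% exact Poisson interval of 2.41 to 4.12 RPKM for *stk* replicate 1 and of 1.32 to 2.59 RPKM for *stk* replicate 2. Here and for the other loci, such intervals cover counting error only.

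*MRD1* and *HEI10* overlap on chromosome 1 on opposite strands, and their values are best read together. *MRD1* runs on the reverse strand from 19963047 to 19964712, and *HEI10* on the forward strand from 19963267 to 19966952 (both TAIR10). The 2 loci share 1446 bases. Of the 2252 exon bases of *HEI10*, spread over 10 exons, 1158 or 51.4% lie inside the *MRD1* locus, and these include the whole long first exon. All 915 coding bases of *HEI10* lie outside it, so the overlap concerns the leader of its transcript. *MRD1* model 2, a single exon of 1142 bases, shares 922 of them with *HEI10* exons. A non-coding RNA of the forward strand, AT1G07887, is annotated over the same stretch and is not among the gene models of the files.

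**Figure D2:**
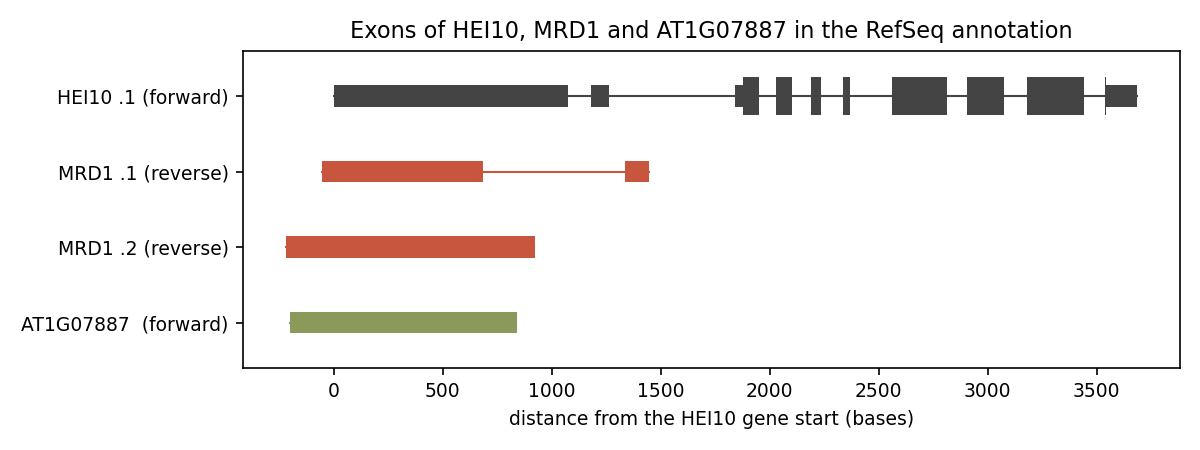
Exons of *HEI10*, of both *MRD1* models and of the non-coding AT1G07887 in the RefSeq annotation, drawn by distance in bases from the *HEI10* gene start, with exons as low boxes, *HEI10* coding sequence as tall boxes and introns as lines. *MRD1* and AT1G07887 cover most of the long first exon of *HEI10* and stop before its coding part.

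*MRD1* had 15.3 and 13.1 RPKM in wild-type replicates 1 and 2, from 297 and 315 reads. In *stk* it had 0.831 RPKM in replicate 1, from 29 reads, and 0.0780 RPKM in replicate 2, from 3 reads. All of this came from model 2, since model 1 was listed at 0 in every library. The *stk* mean was 0.454 ± 0.532 RPKM against 14.2 ± 1.58 RPKM in wild type (SD, n = 2 each), a ratio of 31.3 that left 3.20%. This was the deepest fall of the 4 loci. The counting intervals of the *stk* libraries, 0.556 to 1.19 RPKM and 0.0161 to 0.228 RPKM, did not meet, so the 2 mutant samples differed by more than counting error at this locus.

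*HEI10* had 14.8 and 12.3 RPKM in wild-type replicates 1 and 2, from 566 and 585 reads. It had 1.82 and 1.36 RPKM in *stk* replicates 1 and 2, from 125 and 103 reads. The lowest wild-type library was 6.79 times the highest *stk* library. The mean fell from 13.6 ± 1.76 to 1.59 ± 0.324 RPKM (SD, n = 2 each), a ratio of 8.55 that left 11.7%.

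In wild type *MRD1* and *HEI10* stood at nearly the same RPKM, with a ratio of *MRD1* to *HEI10* of 1.03 in replicate 1 and 1.06 in replicate 2. In *stk* that ratio was 0.458 in replicate 1 and 0.0574 in replicate 2. Both loci thus fell in both mutant samples, and *MRD1* fell by the larger factor. No use of strand is stated for the read counting, so reads from the shared exons cannot be assigned to either gene, and how much of the fall at one locus is the fall at the other was not tested. The positions of the *MRD1* models in the files are also mirrored within the gene relative to the annotation, with model 2 at 19963571 to 19964712 in the files and at 19963047 to 19964188 in RefSeq. The same mirroring was found in 1412 of 6727 models (21.0%) of reverse-strand loci with several models and in 0 of 6980 on the forward strand. Which stretch was counted for *MRD1* is therefore uncertain.

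AT1G71690 lies on the forward strand of chromosome 1, from 26947765 to 26949168 in the files (TAIR10). It had 9.64 and 13.3 RPKM in wild-type replicates 1 and 2, from 169 and 290 reads. It had 0.950 and 0.632 RPKM in *stk* replicates 1 and 2, from 30 and 22 reads. Its lowest wild-type value was 10.1 times its highest *stk* value, the widest gap between the groups after that of *MRD1*, where it was 15.8. Its mean went from 11.5 ± 2.60 RPKM in wild type down to 0.791 ± 0.225 RPKM in the mutant (SD, n = 2 each), a ratio of 14.5 that left 6.89%.

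The order of the ratios was thus *MRD1*, AT1G71690, *HEI10* and *QQS*. *HEI10* and *QQS* lay close together in this order, at 8.55 and 7.52, while the *stk* replicates of *QQS* alone differed from 3.18 to 1.88 RPKM, so these neighbours in the order do not differ beyond their spread. At all 4 loci *stk* replicate 2, which shares its lane with the wild-type libraries, was below *stk* replicate 1. The RPKM summed over all gene models was also lower in *stk* replicate 2, at 593670 against 680016, and the share of all loci with this order was not counted. At the 4 loci the wild-type replicates had no common order, since replicate 2 was the higher one for *QQS* and AT1G71690 and the lower one for *MRD1* and *HEI10*. In wild type the 4 loci were neither rare nor abundant. Among loci with any wild-type RPKM, *QQS*, the highest, stood within the top 26.1% by mean RPKM and AT1G71690, the lowest, within the top 39.7%. Among loci with any *stk* RPKM, *QQS* and AT1G71690 stood within the top 67.4% and 79.1%, and *MRD1* within the top 83.4%.

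All 4 loci also met the criteria of an unadjusted p of at most 0.05 from limma and a 2-fold lower mean in *stk*, which 62 of 19044 loci or 0.326% met, and at all 4 both *stk* libraries lay below both wild-type libraries, as at 26.8% of loci. The choice of the loci fixes both counts, so nothing is read from them. In the fit across all loci, limma with Benjamini-Hochberg adjustment gave 0 loci with an adjusted p under 0.05 in either direction, while 672 lower and 1077 higher loci had an unadjusted p under 0.05. In the other direction 590 loci (3.1%) met the 2-fold criteria. With 2 libraries against 2, an exact permutation test of a single locus cannot give a two-sided p below 0.333.

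Among the 14134 loci with a wild-type mean of at least 5 RPKM, the 4 loci held ranks 1 to 4 of the ratio and *STK* rank 5. Just outside them stood *BGL2*, a pathogenesis-related glucanase, at a ratio of 3.67, *scpl41*, a serine carboxypeptidase-like gene, at 2.89, and AT1G14250 at 2.85. The *BGL2* value rested on 1 library, with 10.2 and 1.29 RPKM in wild-type replicates against 2.07 and 1.07 RPKM in *stk* replicates, so its groups overlapped. Among weakly expressed loci, AT1G34575 had a ratio of 10.3 at a wild-type mean of 1.13 RPKM, and AT2G07684, at a wild-type mean of 1.22 RPKM, was listed at 0 in both *stk* libraries. The step in the ratio from *QQS* at 7.52 to *STK* at 5.01 and on to *BGL2* at 3.67 holds for a wild-type mean of at least 5 RPKM. With a wild-type mean of at least 1 RPKM the ratios after *QQS* were closer together. They were 5.14 for AT4G11310, 5.01 for *STK*, 4.96 for AT2G01023 and 4.76 for AT4G12900.

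**Figure D3:**
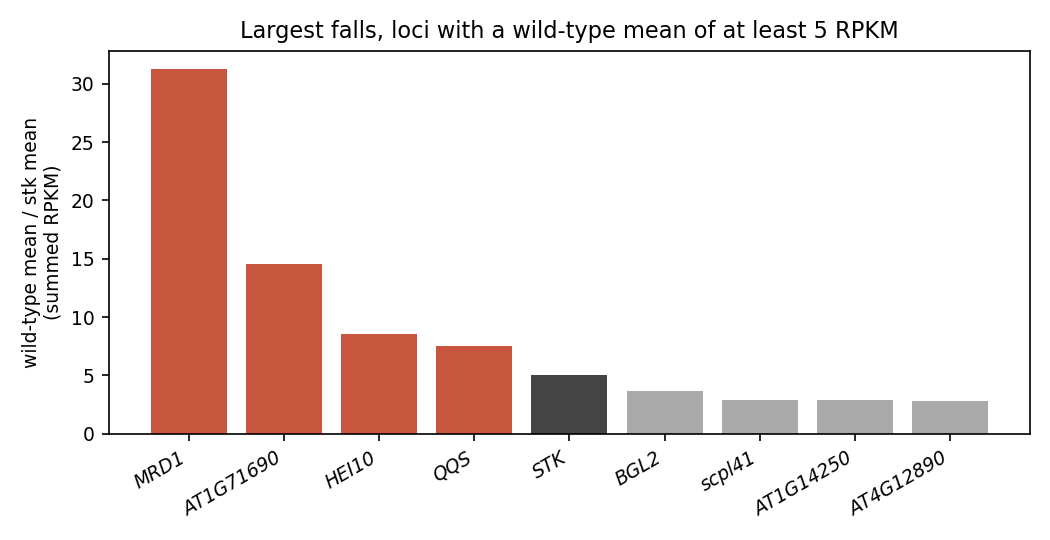
Ratio of the wild-type to the *stk* mean of summed RPKM for the 9 loci with the largest ratios among those with a wild-type mean of at least 5 RPKM, with the chosen loci in red, *STK* in dark grey and the others in light grey. The bars drop from 31.3 at *MRD1* to 7.52 at *QQS*, 5.01 at *STK* and 3.67 at *BGL2*.

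Since STK is a DNA-binding MADS-domain protein, the 250 bases before each gene start were read for the CArG box, the motif that such proteins bind, on both strands. The windows come from the RefSeq annotation of TAIR10.1. AT1G71690 was the 1 locus of the 4 with an exact match, CCTTAATTGG, which begins at position -194 from its start. Exact matches were present in 692 of 27443 promoters of this length, or 2.52%. *QQS*, *MRD1* and *HEI10* had none, with up to 1 mismatch allowed as well, which 34.7% of promoters held. Over 1000 bases these shares were 7.21% and 76.9%, and the same 3 loci again had no match of either kind. A match is a description of these letters and not a binding site, and the lack of one says only that these letters are not in the window.

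The windows of AT1G71690, *QQS* and *MRD1* are shown so that the one with a CArG box can be compared with those without. Capitals mark the CArG box in AT1G71690, and in *QQS* and *MRD1* the longest stretch that occurs at least 2 times in the window. They lie at chr1:26947504-26947753 on the forward strand, chr3:12348797-12349046 on the forward strand and chr1:19964713-19964962 on the reverse strand, and each reads 5′ to 3′ towards the gene. The *MRD1* window precedes the outermost annotated start of the locus, that of the model listed at 0, and lies in an intron of *HEI10*. The window of *HEI10* consists largely of *MRD1* and AT1G07887 exons and is not shown.

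AT1G71690: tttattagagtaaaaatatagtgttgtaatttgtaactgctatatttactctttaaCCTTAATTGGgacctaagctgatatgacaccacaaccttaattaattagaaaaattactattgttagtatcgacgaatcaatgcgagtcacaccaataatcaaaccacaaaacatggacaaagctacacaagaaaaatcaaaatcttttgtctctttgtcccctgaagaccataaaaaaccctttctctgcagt
QQS: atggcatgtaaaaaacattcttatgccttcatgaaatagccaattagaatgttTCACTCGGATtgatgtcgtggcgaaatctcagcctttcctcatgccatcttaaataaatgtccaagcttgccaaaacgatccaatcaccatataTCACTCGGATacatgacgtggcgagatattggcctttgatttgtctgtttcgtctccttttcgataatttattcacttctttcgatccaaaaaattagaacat
MRD1: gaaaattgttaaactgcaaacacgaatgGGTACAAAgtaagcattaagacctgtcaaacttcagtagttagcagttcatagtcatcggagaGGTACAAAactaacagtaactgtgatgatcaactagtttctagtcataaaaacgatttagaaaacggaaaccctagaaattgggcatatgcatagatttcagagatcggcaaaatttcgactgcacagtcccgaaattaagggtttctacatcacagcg

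The *QQS* window holds TCACTCGGAT at position -197 and again at position -103 from the start. A repeat of 10 bases or more was present in 28.5% of promoter windows, and one of 8 bases or more, as in *MRD1*, in 78.0%.

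The genes beside the 4 loci on the chromosome were compared to see whether whole stretches of chromosome moved. Of the 5 loci on either side of *QQS*, of the *MRD1* and *HEI10* pair and of AT1G71690, 17 of 30 reached the mean of 1 RPKM. Of these 17, 0 met the 2-fold criteria in either direction, beside 0.326% of all loci as lower and 3.1% as higher. By unadjusted p alone 2 of them, AT1G53430 and AT1G71691, had a p under 0.05 in limma, each lower in *stk*. Over all 19044 loci 672 lower and 1077 higher ones had such a p. The log2 differences of the 17 loci lay between -0.56 and 0.35. *MUM4*, a rhamnose synthase gene of seed mucilage whose end overlaps that of *HEI10* by a few bases, had 44.9 and 46.7 RPKM in wild-type replicates against 46.4 and 48.4 RPKM in *stk* replicates. On the other side *MSL4* was under 1 RPKM in every library.

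*QQS* stood alone in a stretch with little transcript. Its nearest neighbours, AT3G30705 at 77321 bases and *GDU6* at 2539 bases, were listed at 0 in all 4 libraries and at 0 in 3 of 4, respectively. The 1 neighbour with a mean of at least 1 RPKM, *ERD5*, a proline dehydrogenase gene, had 119.7 and 126.9 RPKM in wild-type replicates against 121.0 and 130.0 RPKM in *stk* replicates. It lies 98703 bases away, so these values do not show whether the stretch close to *QQS* moved.

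Beside AT1G71690, the upstream locus AT1G71680 had 13.7 and 7.89 RPKM in wild-type replicates against 9.90 and 8.53 RPKM in *stk* replicates, so its groups overlapped. The downstream locus AT1G71691, on the opposite strand, had 5.36 and 7.26 RPKM in wild-type replicates against 3.95 and 3.92 RPKM in *stk* replicates. Its groups did not overlap, with a log2 difference of -0.56 (limma, unadjusted p = 0.0198, adjusted p = 0.514). In RefSeq it shares 506 of the 1124 exon bases of AT1G71690 (45.0%), whereas in the files AT1G71690 ends before AT1G71691 begins. Whether reads of the one entered the value of the other was not tested.

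**Figure D4:**
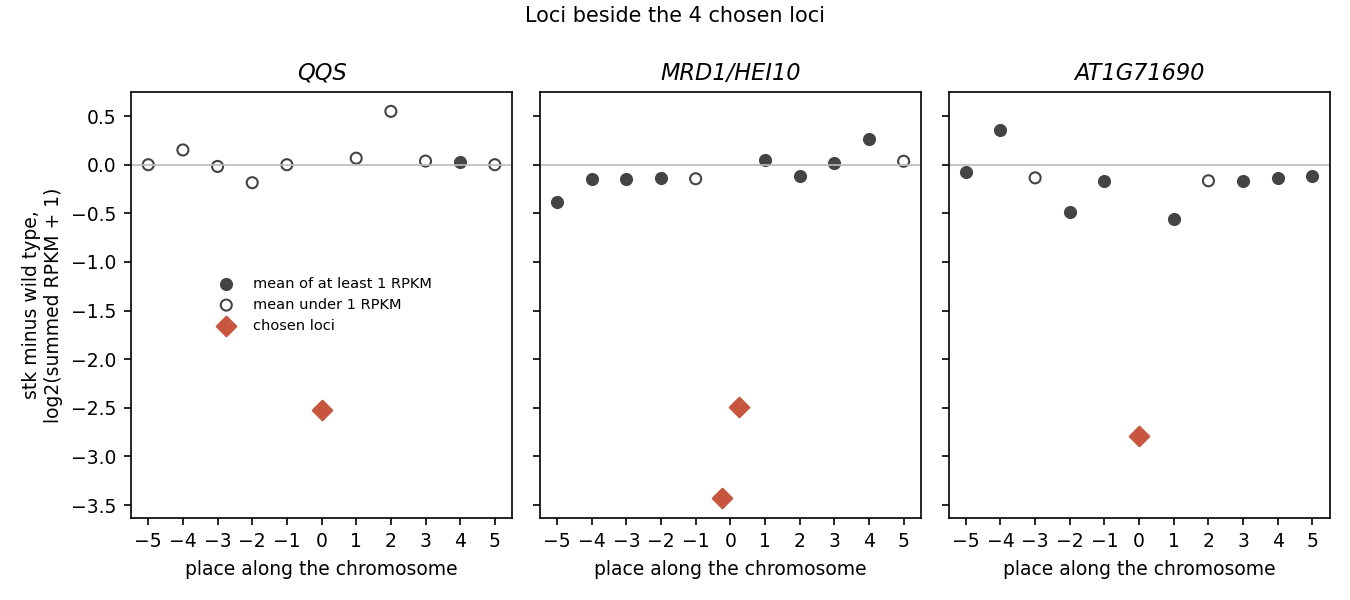
Difference of *stk* from wild type on the log2(summed RPKM + 1) scale for the 5 loci on either side of *QQS*, of *MRD1* and *HEI10* and of AT1G71690, by place along the chromosome, with filled points for loci with a mean of at least 1 RPKM, open points for loci under it and red diamonds for the chosen loci. The neighbours with a mean of at least 1 RPKM lie between -0.56 and 0.35, and the diamonds between -3.43 and -2.49.

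Loci linked to each chosen locus by its known role, its name or its annotation were examined gene by gene. The lists held 109 loci, of which 95 reached the mean of 1 RPKM. The list for *MRD1*, whose product has no known role, follows its name only, and those for AT1G71690 follow its annotation. On the log2(summed RPKM + 1) scale, the median difference of all 19044 loci was -0.05. Of the 95 tested loci, 3 met the 2-fold criteria as higher in *stk* and 0 as lower, beside 3.1% and 0.326% of all loci, so the lists together stood near the background. None of the 95 had an adjusted p under 0.05, as was the case over all loci.

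For *QQS*, loci of starch synthesis, of starch breakdown and of the NF-YC subunits were compared. The breakdown list holds no beta-amylases. Of these *BAM5* was lower in *stk*, with 465.1 and 432.3 RPKM in wild-type replicates against 237.1 and 197.7 RPKM in *stk* replicates. It is described again with the loci most like the chosen ones, and the other beta-amylases are not described here. Of 17 starch synthesis loci 0 met the criteria in either direction, with a median log2 difference of -0.05 and a range from -0.22 to 0.14. The largest difference was that of *APL4*, a large subunit of ADP-glucose pyrophosphorylase, with 15.8 and 14.8 RPKM in wild-type replicates against 13.7 and 12.2 RPKM in *stk* replicates. *APL3* and *APL1*, large subunits of the same enzyme, followed with log2 differences of -0.16 and 0.14.

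Of 15 starch breakdown loci, a list without the beta-amylases, 0 met the criteria, with a median log2 difference of -0.05. *LSF2*, a glucan phosphatase, had 24.9 and 26.1 RPKM in wild-type replicates against 37.9 and 28.7 RPKM in *stk* replicates, a log2 difference of 0.36 (limma, unadjusted p = 0.0887). *SEX1*, the glucan water dikinase that starts starch breakdown, and *PHS1*, a plastid phosphorylase, had log2 differences of -0.20 and -0.16. Among 5 NF-YC loci, the *QQS* partner *NF-YC4* had 25.6 and 19.3 RPKM in wild-type replicates against 26.7 and 20.0 RPKM in *stk* replicates, so its groups overlapped. *NF-YC2* and *NF-YC3* had log2 differences of 0.27 and -0.11. With single libraries left out these ran from 0.00485, without *stk* replicate 1, to 0.531, without *stk* replicate 2, and from -0.207, without wild-type replicate 2, to -0.0194, without wild-type replicate 1.

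For *MRD1*, 1 of 24 loci of methionine synthesis, use and upstream aspartate metabolism met the criteria, as higher in *stk*, beside 3.1% of all loci. *AK3*, an aspartate kinase at the head of the pathway, rose from 1.24 and 0.843 RPKM in wild type to 2.09 and 3.14 RPKM in *stk*, a 2.51-fold higher mean with a log2 difference of 0.82 ± 0.20 (standard error; limma, unadjusted p = 0.00747, adjusted p = 0.478). Without wild-type replicate 2 its unadjusted p was 0.0614. *CGS1*, the cystathionine synthase altered in the *mto1* mutant that gave *MRD1* its name, had 142.6 and 119.4 RPKM in wild-type replicates against 112.3 and 120.3 RPKM in *stk* replicates, so its groups overlapped. The median log2 difference of the list was -0.08, but 0.0173 without wild-type replicate 1 and 0.00478 with the most abundant gene model. The other locus annotated as an *MRD1*-like protein, AT5G03090, had 0.200 and 0 RPKM in wild-type replicates against 0.111 and 0 RPKM in *stk* replicates, and *MRU1*, named for the opposite response in *mto1*, had 1.69 and 0.972 RPKM in wild-type replicates against 1.21 and 0.730 RPKM in *stk* replicates. *CGS1*, AT5G03090 and *MRU1* were named after their values were seen.

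For *HEI10*, the partner genes of the class I crossover pathway were mostly too weak to test in whole inflorescences. Of 8 loci 3 reached the mean of 1 RPKM, and 0 met the criteria. *MSH5* and *PTD* had log2 differences of -0.08 and 0.26. The value listed for *HEI10*, 14.8 and 12.3 RPKM, was above those of all 8 in the wild-type libraries. It may hold reads of *MRD1* from the shared exons, and their part in it was not tested.

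Among 17 other meiosis loci 8 were tested and 0 met the criteria, with a median log2 difference of -0.32 and 7 of 8 below 0. Without a filter on low values the median of all 17 was -0.15, and without wild-type replicate 1 that of the 8 was -0.14. *OSD1*, an inhibitor of the anaphase-promoting complex in meiosis, had 6.36 and 4.90 RPKM in wild-type replicates against 3.40 and 3.27 RPKM in *stk* replicates, a log2 difference of -0.60 (limma, unadjusted p = 0.0112, adjusted p = 0.502). *DMC1*, a recombinase of meiotic strand exchange, had a log2 difference of -0.40. The 8 tested loci had log2 differences between -0.60 and 0.34, beside -2.49 for *HEI10*, a value that may likewise hold *MRD1* reads.

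For AT1G71690, its relatives in the DUF579 family were compared. Of 9 tested relatives 2 met the criteria as higher in *stk*, beside 3.1% of all loci, 0 met them as lower, and 6 of 9 had a positive log2 difference and 3 a negative one, with a median of 0.31 against -0.05 for all loci. *GXMT1* (AT1G33800), a glucuronoxylan methyltransferase, rose from 8.92 and 10.9 RPKM in wild type to 19.1 and 22.4 RPKM in *stk*, a 2.09-fold higher mean with a log2 difference of 0.997 ± 0.165 (standard error; limma, unadjusted p = 0.00122, adjusted p = 0.32). *GXM2* (AT4G09990) rose from 1.96 and 2.13 RPKM to 4.24 and 4.38 RPKM, 2.1-fold (log2 difference 0.80 ± 0.13; limma, unadjusted p = 0.00121, adjusted p = 0.32).

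*GXM3* (AT1G09610), a further glucuronoxylan methyltransferase, had 4.25 and 6.07 RPKM in wild-type replicates against 9.43 and 10.6 RPKM in *stk* replicates, a ratio of 1.95 that stayed just under the 2-fold criterion (limma, unadjusted p = 0.00478). *GXMT1*, *GXM2* and *GXM3* thus had non-overlapping groups, all higher in *stk*, as at 16.3% of all loci, where AT1G71690 was lower. The count of relatives that met the criteria ranged from 1 to 3 with each library left out in turn, and it was 1 without wild-type replicate 1 and 1 without *stk* replicate 2. Of the other 6 relatives, *IRX15*, *IRX15-L* and AT4G24910 had log2 differences of 0.44, 0.31 and 0.23, with both *stk* values above both wild-type values. *AGM1*, an arabinogalactan methyltransferase, AT2G15440 and AT1G67330 had log2 differences of -0.27, -0.27 and -0.22. At *AGM1* and AT2G15440 both *stk* values lay below both wild-type values, as at 26.8% of all loci, and at AT1G67330 the groups overlapped.

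The 14 xylan synthesis loci had a median log2 difference of 0.37, and 9 of 14 were above 0, but 0 met the criteria. *IRX8*, which makes the reducing end of xylan, had 7.70 and 8.39 RPKM in wild-type replicates against 13.4 and 16.5 RPKM in *stk* replicates, a ratio of 1.86 (limma, unadjusted p = 0.00263, adjusted p = 0.395). *ESK1*, a xylan acetyltransferase, and *IRX9*, a xylan backbone synthesis gene, had ratios of 1.72 and 1.63, with unadjusted p of 0.00368 and 0.0301 in limma. For *IRX9*, 5.69 and 7.88 RPKM in wild type stood against 9.31 and 12.9 RPKM in *stk*. The *IRX9* log2 difference of 0.63 was 0.429 without wild-type replicate 1 (limma, unadjusted p = 0.172) and 0.42 without *stk* replicate 2 (limma, unadjusted p = 0.0843). Without *stk* replicate 1, *IRX8* met the criteria and the list median was 0.487, while without *stk* replicate 2 the median was 0.22.

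**Figure D5:**
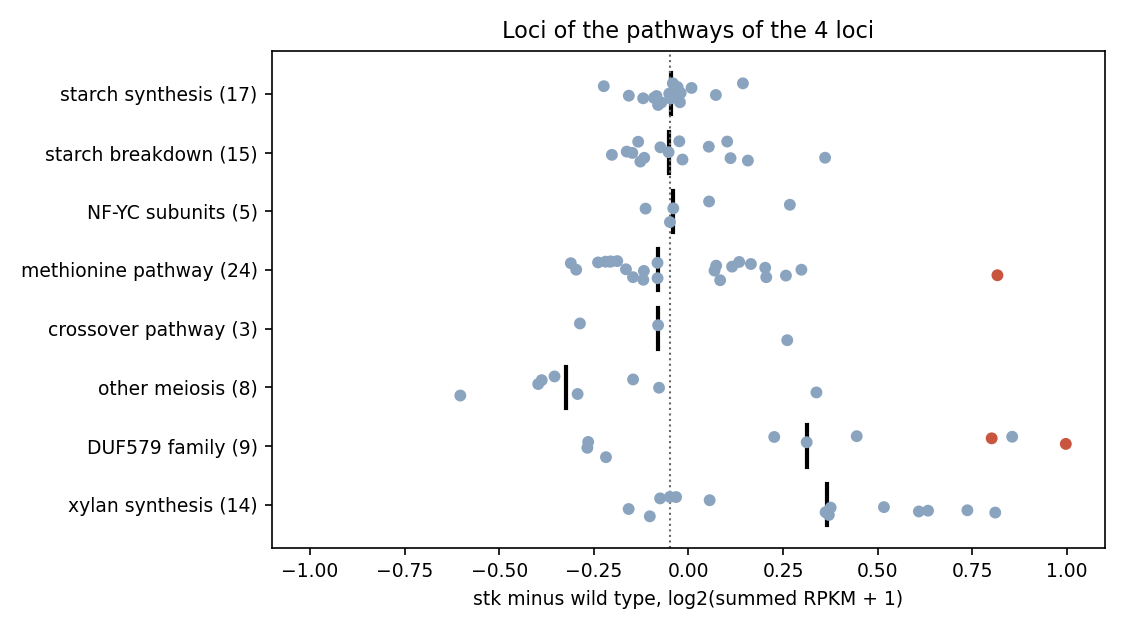
Difference of *stk* from wild type on the log2(summed RPKM + 1) scale for the tested loci of each list, with the number tested in brackets, a black bar for the list median, a dotted line for the median of all loci at -0.05 and red points for loci that met the 2-fold criteria. The medians of the DUF579 and xylan synthesis lists, 0.31 and 0.37, lie to the right of the dotted line and that of other meiosis genes, -0.32, to its left.

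The loci whose pattern over the 4 libraries was most like that of each chosen locus were looked for among the 24 loci whose log2 difference was -1 or lower, by the cosine of their deviations from the mean. Over 4 libraries in 2 groups such a likeness mostly restates a fall in *stk*, so it is a description with no test. For *QQS* the nearest was AT2G01023, an uncharacterised protein gene, with a cosine of 0.999 and with 2.95 and 3.56 RPKM in wild-type replicates against 0.818 and 0.495 RPKM in *stk* replicates. For *MRD1* they were *BAM5*, a beta-amylase, and *scpl41*, both with a cosine of 0.999. For *HEI10* it was *scpl41*, with a cosine of 0.998 and with 9.43 and 8.77 RPKM in wild-type replicates against 3.48 and 2.82 RPKM in *stk* replicates.

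For AT1G71690, which had its higher wild-type value in replicate 2, the nearest was AT1G62510, a lipid-transfer-like protein gene, with a cosine of 0.998, followed by AT2G01023 and the amino acid exporter-like *UMAMIT15*. *BAM5* was the most abundant of these loci, with 465.1 and 432.3 RPKM in wild-type replicates against 237.1 and 197.7 RPKM in *stk* replicates. *scpl41* was among the 5 nearest loci of all 4 chosen loci. *EXLB1*, an expansin-like gene, and AT4G11310, a papain-family protease gene, were among the 5 nearest of *MRD1* and *HEI10*, and AT4G11310 also of *QQS*. *STK* itself had cosines from 0.985 with *MRD1* to 0.994 with AT1G71690.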

How the data were processed

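Total RNA of 2 wild-type and 2 *stk* samples was sequenced as single reads by the authors, who mapped them to TAIR10 with CLC Genomics Workbench, divided a read with several matching places between them, and deposited RPKM values per gene model. FastQC is named in the submitters' processing notes. Strand use in the counting is not given in the sources used here. Here the models of a locus were summed, which gave 27206 loci from 35182 models. Log2(summed RPKM + 1) was compared with limma 3.58.1 in R 4.3.3 over the 19044 loci with a mean of at least 1 RPKM, with Benjamini-Hochberg adjustment over all of them. The 2-fold criteria were a limma p, before adjustment, no larger than 0.05, together with a 2-fold ratio of mean RPKM. Fold changes on this scale understate those of weak loci. On simulated data for this comparison with 19044 loci, 42 of 57 loci with a log2 change of 1, 70 of 70 with 2 and 73 of 73 with 3 met these criteria, as did 97 of 18844 unchanged ones. An adjusted p under 0.05 in limma was reached by 44, 70, 73 and 27 of these loci, against 0 loci in the real data. The simulated noise was independent between loci and libraries, so these shares do not give the power of the real comparison.

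Library sizes and reads were estimated from the spacing of RPKM values at 5356 single-model loci, where 94.0% to 95.2% of low values came out as whole reads (tolerance 0.05 of a read). They rest on exon lengths of the annotation. Symbols, exons, upstream windows and coding sequence come from RefSeq on TAIR10.1, which shares its chromosome coordinates with TAIR10, and 26719 of 27206 loci matched by locus name. Python 3.11.15, numpy 2.4.6, pandas 2.3.3, scipy 1.17.1 and matplotlib 3.10.9 were used.

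The 4 loci and the gene lists were chosen with earlier results of these data known, and the locus number of *PRD1* in the meiosis list was corrected after the first fit. Genes are named if they are among the 4 loci or *STK*, if they met the criteria within a list (otherwise the 3 largest differences), if they are the nearest neighbours, the 5 most alike in pattern or the next in rank of fall. The other names, among them *GXM3* and the other DUF579 members, *ERD5*, *INO* and *SEP3*, were chosen after their values were seen. Values of 2 listed loci that this rule would name are not reported here. Alternatives were a pseudocount of 0.1, other filters, quantile normalization, limma with trend, a replicate block, the most abundant model in place of the sum, and each library left out in turn.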

Additional observations from a re-analysis of the deposited data

How the results depend on the processing

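The choice of the 4 loci as deep falls fixes the sign of their log2 difference, so nothing is read from its staying negative in the alternative runs. *MRD1* and AT1G71690, under 1 RPKM in the *stk* libraries, drop out with the filter of at least 1 RPKM in every library. A pseudocount of 0.1 moved the log2 difference most, from -2.53 to -2.90 for *QQS*, -3.43 to -5.13 for *MRD1*, -2.49 to -3.03 for *HEI10* and -2.79 to -3.70 for AT1G71690. When single libraries were left out the values ran from -2.80 to -2.26 for *QQS*, -3.81 to -3.05 for *MRD1*, -2.62 to -2.37 for *HEI10* and -3.0 to -2.58 for AT1G71690.

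The count of loci that met the 2-fold criteria as lower in *stk*, 62, was 135 without a filter on low values, 29 with at least 1 RPKM in every library, 108 after quantile normalization and 95 with the most abundant model. With a library left out it ran from 88 to 176, and the count of higher loci, 590, from 204 to 1232, where the lone library was assumed to vary like the other group. Loci with an adjusted p under 0.05 numbered 0, but 5 after quantile normalization, 1 with trend, 324 without *stk* replicate 1, 1570 without *stk* replicate 2 and 0 without either wild-type library. Left-out ranges of list medians were -0.083 to -0.012 for starch synthesis, -0.0985 to 0.0173 for the methionine pathway, -0.157 to 0.1 for the NF-YC subunits, -0.463 to -0.142 for other meiosis genes (median -0.324, and -0.15 without a filter on low values) and 0.22 to 0.487 for xylan synthesis. The *AK3* call, 1, was 0 with at least 1 RPKM in every library and ran from 0 to 1 over the left-out libraries. The count of DUF579 relatives, 2, ran from 1 to 3. *NF-YC4* turned to -0.14 without wild-type replicate 2 and to -0.15 without *stk* replicate 1, and over the left-out libraries it ran from -0.147 to 0.256. *PTD* ran from -0.0465 without wild-type replicate 1 to 0.568 without wild-type replicate 2.

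Whether the replicate numbers pair the samples cannot be told from the values. Replicates 1 of both groups had a correlation of deviations of -0.13. With 2 libraries in a group the deviations of replicate 2 mirror those of replicate 1, so this is a single comparison. With a replicate block 63 loci were lower and 433 higher. With crossed numbers, an alternative chosen after seeing the data, 71 were lower, 816 higher, 921 had an adjusted p under 0.05 and 1 of the neighbouring loci met the criteria. Depth limits *MRD1* most, with 3 reads in *stk* replicate 2. The lane of *stk* replicate 1 differed from that of the other libraries, and its part in these values was not tested beyond leaving that library out.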
